A study of Mus musculus with 12 samples.

Results

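The FGF9 signalling and feedback genes are 10 genes chosen by name. They are the ligand Fgf9, the receptors Fgfr1 and Fgfr2, the inhibitors Spry1, Spry2, Spry4, Spred1 and Dusp6, and the transcription factors Etv4 and Etv5. Each was read by 1 transcript cluster, the array's unit for a locus, and all 10 were measured, out of 30702 genes with a named cluster and 65956 clusters in all. No filter on low signal was used.

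The values come from whole fetal mouse gonads (14.5 dpc), freed of the mesonephros and hybridised to the Affymetrix Mouse Transcriptome Array 1.0, with 4 arrays in each of 3 groups. Each array held RNA of 1 pair of gonads from 1 embryo, on a mixed 129Sv and C57Bl/6J background. The XY control and XX control embryos carried Sf1-cre and 2 unmodified Rosa26 alleles. The XY FOXL2+ embryos carried Sf1-cre as well, and on 1 Rosa26 allele the CAG-driven Foxl2 transgene, kept silent by a stop cassette between loxP sites (LSL). Cre driven from the Sf1 (Nr5a1) gene removes that cassette in the somatic cells of the gonad and not in germ cells, so that every group has the Cre and the XY FOXL2+ group alone has the transgene. The question was what FOXL2, a transcription factor of ovarian granulosa cells, does to the somatic cells of a fetal testis.

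FGF9 is a secreted growth factor of the fetal testis, where it supports Sox9 expression in Sertoli cells and acts against WNT4, and mice without it lose testis development. It binds FGF receptors, FGFR2 being the one that gonadal somatic cells need for testis formation, with heparan sulphate as a co-receptor, and the receptor signals through RAS and the kinase ERK. ERK signalling switches on the ETS factors ETV4 and ETV5 and the inhibitors Sprouty, SPRED and DUSP6, which damp the same pathway, so transcripts of these genes are commonly used as a readout of FGF signalling. Other receptor tyrosine kinases use the same relay, and a high level of a feedback gene does not name the receptor behind it.

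Values are signals on a log scale, taken as log2, and differences are log2 differences with their standard error from a limma fit over all 12 arrays, with p-values adjusted over all 65956 clusters and a threshold of 0.05. Array medians lay between 6.15 and 6.30. The Foxl2 cluster read 7.67, 8.62, 7.18 and 6.72 in XY FOXL2+ replicates 1 to 4, 5.07 to 5.55 in XY controls and 7.14 to 8.08 in XX controls. Transgenic gonads exceeded XY controls by 2.20 (SE 0.33, adjusted p = 0.00122). XY FOXL2+ replicate 1 stood apart on the second principal component (14.1% of the variance), and replicates 3 and 4 stood apart together on the third (10.5%). The mean of 8 Sertoli cell markers lay at 10.52 to 10.83 on the XY control arrays, spread over 7.75 to 9.40 on the XY FOXL2+ arrays and reached 6.98 to 7.07 on those of XX controls. The mean of 7 granulosa cell markers ran from 7.57 to 7.61, from 8.11 to 10.25 and from 10.50 to 10.82 in the same order, so the labelled tissues carried their own supporting cell markers. Markers of other cells changed as well. Against XY controls, 4 of 4 fetal Leydig markers (median -6.64) and 5 of 5 peritubular myoid and smooth muscle markers (median -1.16) fell in XY FOXL2+. Of 5 interstitial progenitor markers 3 fell and 1 rose, and of 5 macrophage markers 4 rose. Over all clusters 4.67% fell and 2.46% rose. In whole gonads, fewer cells of a type and less RNA per cell cannot be told apart. What part these changes of cell markers have in the results below was not tested.

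Most of the feedback and response genes were lower in ovary than in testis, and the FOXL2 transgene moved few of them past the threshold. In XX controls against XY controls 7 of the 10 genes were lower (Fgf9, Spry1, Spry2, Spry4, Dusp6, Etv4 and Etv5) and 1, Fgfr2, was higher, where 10.2% of all clusters were called lower and 7.17% higher. The Etv4 call, near the threshold here and against XX controls, ended under most alternatives. The median difference of the 10 genes was -0.61, beside -0.03 over all clusters. In XY FOXL2+ against XY controls 1 gene, Fgfr2, rose and 1, Spry1, fell, where 2.46% of all clusters rose and 4.67% fell, with a median of -0.17 beside 0.0031. In XY FOXL2+ against XX controls 4 genes were higher (Fgf9, Dusp6, Etv4 and Etv5) and Fgfr2 was lower, where 2.87% of all clusters were called higher and 2.64% lower, with a median of 0.32 beside 0.03. Over the array 5.51% of clusters were called in either direction in that last comparison. Among the 32978 clusters at or above the median signal, fitted alone, 6259 were called lower and 4513 higher in XX against XY controls. For XY FOXL2+ against XY controls 3204 fell and 1677 rose there, and against XX controls 1988 were lower and 1909 higher. All of the genes but Etv4 read above that median, where calls were thus more common than over all clusters. The comparisons share their control arrays.

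All 4 XX arrays lay on one side of all 4 XY control arrays in each of the 10 genes, below in 9 and above in Fgfr2, where 25.4% of all clusters separated in this way, 14.8% below and 10.5% above. XY FOXL2+ separated from XY controls in 3 genes, above in Fgfr2 (5.23% of all clusters) and below in Fgfr1 and Spry1 (6.97%). It separated from XX controls in 6 genes, above in 5 (Fgf9, Spred1, Dusp6, Etv4 and Etv5, 6.63% of all clusters) and below in Fgfr2 (4.82%).

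**Figure D1:**
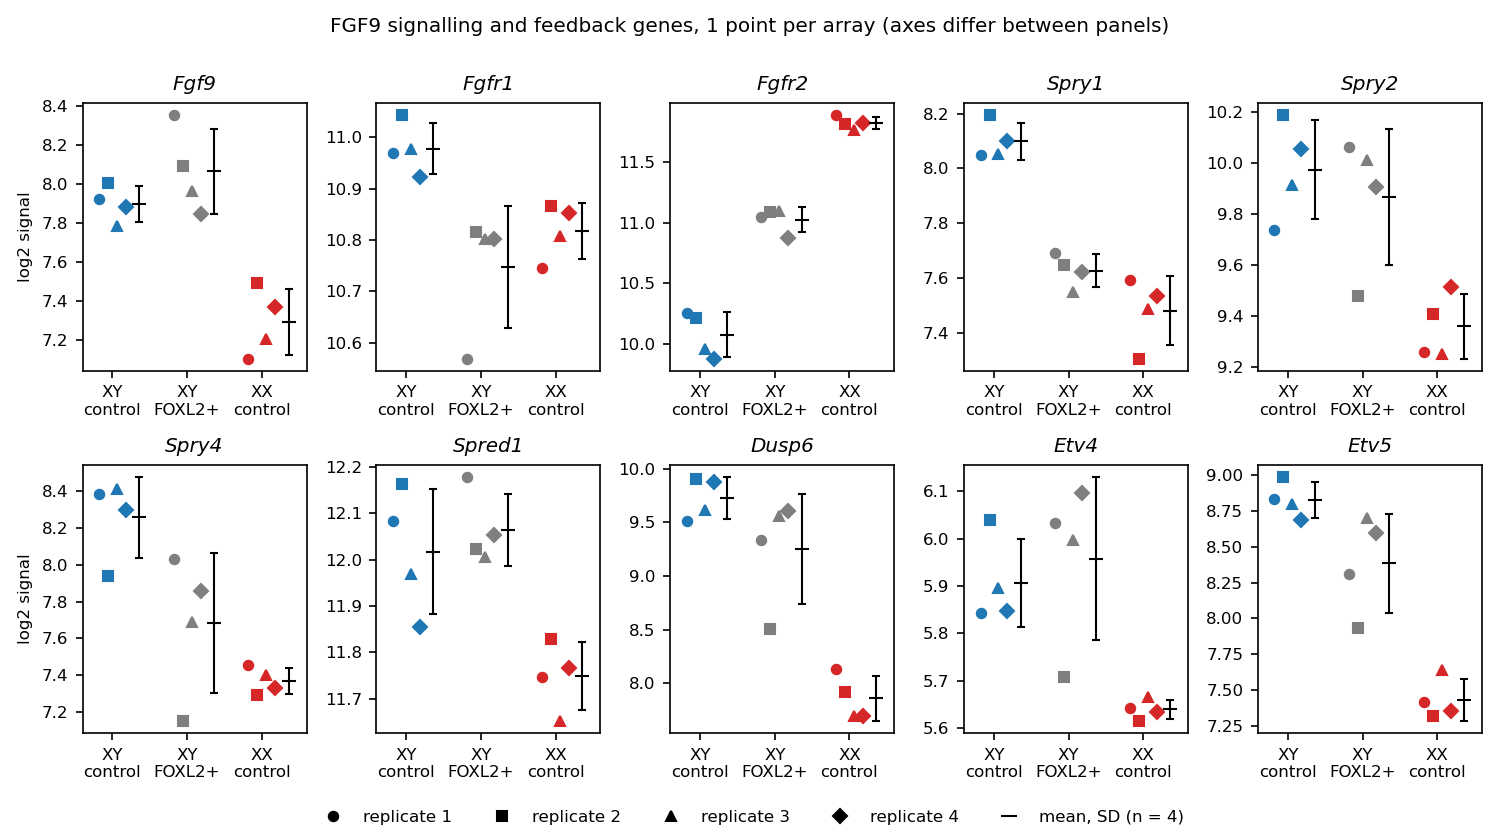
Signal (log2, vertical axis, a different range in each panel) of the 10 genes on the 12 arrays, 1 point per array with the marker shape giving the replicate number, and the mean with its SD (n = 4) as a black bar. Fgf9 stayed at 7.85 or above in XY FOXL2+ while XX controls did not pass 7.49, Fgfr2 formed 3 separate steps, and Spry1 in XY FOXL2+ overlapped the XX controls.

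Fgf9, the ligand, lay within or above its XY control range on all 4 XY FOXL2+ arrays. The 4 XY controls read 7.92, 8.01, 7.78 and 7.88, and the 4 XY FOXL2+ arrays read 8.35, 8.09, 7.96 and 7.85. The XX controls read 7.10, 7.49, 7.20 and 7.37. The XY FOXL2+ arrays overlapped the XY controls, with replicate 1 the highest of all 12, and every XX array lay below every XY array of either kind. The difference between XY FOXL2+ and XY controls was 0.17 (SE 0.12, 95% confidence interval -0.09 to 0.42, adjusted p = 0.488), so the interval leaves out a fall as large as the sex difference. XX controls were lower than XY controls by a log2 difference of -0.61 (SE 0.12, adjusted p = 0.0027), a 1.52-fold difference. XY FOXL2+ exceeded XX controls by 0.77 (SE 0.12, adjusted p = 0.00237), a 1.71-fold difference. In both of these comparisons the exact permutation test over 4 against 4 arrays gave its smallest possible two-sided p, 0.0286. Sox9, the Sertoli cell factor that FGF9 is known to support, fell in the same XY FOXL2+ gonads, from 10.47 to 9.39 on average (-1.08, SE 0.18, adjusted p = 0.00262). Wnt4, which opposes FGF9 in the early gonad, did not pass in XY FOXL2+ (0.30, SE 0.23, adjusted p = 0.537), where its mean was 9.13, and XX controls averaged 10.65. Its XY FOXL2+ arrays ran from 8.58 to 9.81, and those of XY controls from 8.64 to 8.96.

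The receptors differed from each other and from the ligand. Fgfr2, whose product binds FGF9 on gonadal somatic cells, read 10.25, 10.21, 9.95 and 9.88 in XY controls. It read 11.04, 11.08, 11.10 and 10.88 in XY FOXL2+ and 11.89, 11.81, 11.76 and 11.82 in XX controls. The 3 groups did not overlap and formed an ascending order from testis through XY FOXL2+ to ovary. Fgfr2 rose by 0.95 in XY FOXL2+ against XY controls (SE 0.10, adjusted p = 7.7e-05), a 1.93-fold rise. It was 3.35-fold higher in XX than in XY controls (1.75, SE 0.10, adjusted p = 3.08e-07), and XY FOXL2+ stayed below XX controls by a log2 difference of -0.80 (SE 0.10, adjusted p = 0.000798). The XY FOXL2+ mean thus lay 54.4% of the way from the XY to the XX mean. Fgfr2 was the one gene of the 10 to differ past the threshold in all 3 comparisons, and it did so under all 21 alternative settings tried. A transcript cluster sums the splice forms of a gene, and the IIIb and IIIc forms of the receptor, which bind different ligands, were not told apart.

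Fgfr1, the other receptor, varied little. XY controls read 10.97, 11.04, 10.98 and 10.92, XY FOXL2+ 10.57, 10.82, 10.80 and 10.80, and XX controls 10.75, 10.87, 10.81 and 10.85. Every XY control lay above every array of the other groups, but by small steps. The difference was -0.23 (SE 0.08, adjusted p = 0.126) for XY FOXL2+ and -0.16 (SE 0.08, adjusted p = 0.235) for XX controls, and neither passed. XY FOXL2+ replicate 1, at 10.57, was the lowest of the 12 arrays.

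**Figure D2:**
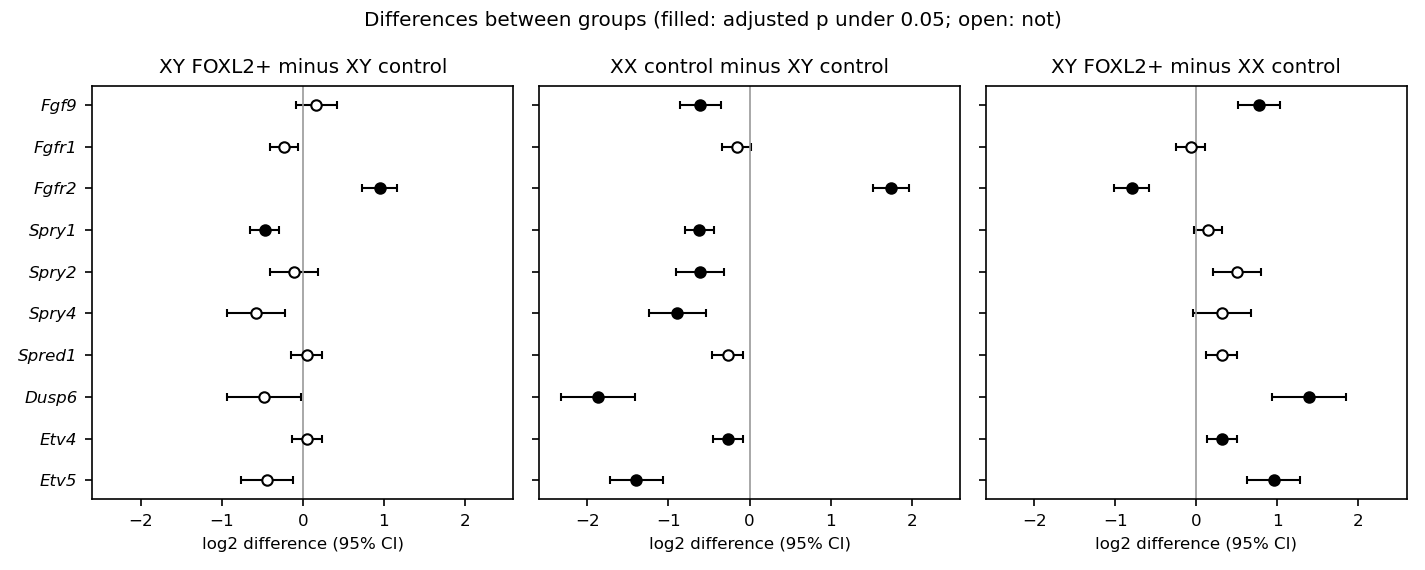
Log2 difference (horizontal axis) of each of the 10 genes with its 95% confidence interval from the limma fit, in the 3 comparisons; filled points passed an adjusted p of 0.05 over all clusters and open points did not. In the middle panel 7 genes lie below 0 past the threshold, and in the left panel Fgfr2 (0.95) and Spry1 (-0.47) alone are filled.

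Among the inhibitors the 3 Sprouty genes, whose products block RAS and ERK activation behind the receptor, were all lower in ovary than in testis and moved unequally in XY FOXL2+. Spry1 read 8.05, 8.19, 8.05 and 8.10 in XY controls and 7.69, 7.65, 7.55 and 7.62 in XY FOXL2+. XX controls read 7.60, 7.31, 7.49 and 7.54. The XY FOXL2+ arrays lay below every XY control and overlapped the XX controls. Spry1 fell by 0.47 in XY FOXL2+ (SE 0.08, adjusted p = 0.00328), a 1.39-fold fall, and was lower by a log2 difference of -0.62 in XX controls (SE 0.08, adjusted p = 0.000159). XY FOXL2+ and XX controls differed by 0.15 (SE 0.08, 95% confidence interval -0.03 to 0.32, adjusted p = 0.373). The fall in XY FOXL2+ held under all 21 alternatives, with adjusted p up to 0.0265.

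Spry2 read 9.74, 10.19, 9.91 and 10.05 in XY controls and 10.06, 9.48, 10.01 and 9.90 in XY FOXL2+. XX controls gave 9.26, 9.41, 9.25 and 9.52. Of the XY FOXL2+ arrays 3 lay within the XY control range and replicate 2 lay within the XX range. XY FOXL2+ minus XY controls came to -0.11 (SE 0.14, adjusted p = 0.736), and to 0.02 without replicate 2 (adjusted p = 0.948). XX controls were lower than XY controls by a log2 difference of -0.61 (SE 0.14, adjusted p = 0.00726). XY FOXL2+ was above XX controls by 0.51 (SE 0.14, adjusted p = 0.0524), short of the threshold, and past it without XY FOXL2+ replicate 2 (0.63, adjusted p = 0.00489).

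For Spry4 the XY controls gave 8.39, 7.94, 8.41 and 8.30, XY FOXL2+ gave 8.03, 7.15, 7.69 and 7.86, and XX controls gave 7.45, 7.29, 7.40 and 7.33. In XY FOXL2+ 3 arrays lay below all XY controls and 1 lay within their range, while replicate 2 lay below every XX array. The sex difference was -0.89 (SE 0.16, adjusted p = 0.002), a 1.85-fold difference. The XY FOXL2+ difference from XY controls, -0.58 (SE 0.16, adjusted p = 0.0547), just missed the threshold. It passed under 5 of 21 alternatives, such as without XY control replicate 2 (-0.68, adjusted p = 0.0334) or without XY FOXL2+ replicate 1 (-0.69, adjusted p = 0.0198), and with array weights (-0.61, adjusted p = 0.0134). From XX controls XY FOXL2+ differed by 0.31 (adjusted p = 0.341), and by 0.49 without XY FOXL2+ replicate 2 (adjusted p = 0.0276).

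Spred1, a membrane inhibitor of RAS and RAF related to Sprouty, varied by less. XY controls gave 12.08, 12.16, 11.97 and 11.85, XY FOXL2+ gave 12.18, 12.02, 12.01 and 12.05, and XX controls gave 11.75, 11.83, 11.65 and 11.77. Every XX array was below every other array, and neither the sex difference (-0.27, SE 0.09, adjusted p = 0.0525) nor that between XY FOXL2+ and XX controls (0.32, SE 0.09, adjusted p = 0.0566) passed. The first of these passed under 7 of 21 alternatives and the second under 4 of 21, among them array weights (adjusted p = 0.0156 and 0.0329). Between XY FOXL2+ and XY controls Spred1 differed by 0.05 (SE 0.09, adjusted p = 0.831).

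Dusp6 and Etv5 had the widest sex differences among the inhibitors and transcription factors of the 10 genes. Dusp6 encodes a phosphatase that inactivates ERK, and ETV5 is an ETS transcription factor that in the gonad is known from Sertoli and germ cells. From the RefSeq promoter table (GRCm38.p6) 8 windows of 7 of the 10 genes were used, and none of Fgfr1, Spry4 and Etv4. The 250 bases before each start were searched on both strands. The 8-letter ETS motif CCGGAAGT, found in 2.88% of 32851 windows, and the Capicua (CIC) motifs TGAATGAA (1.08%) and TGAATGGA (1.01%) matched no window of the 10 genes. CIC is a repressor of Etv and Dusp genes that ERK signalling relieves. The forkhead motif GTAAACA (3.17% of windows) occurred once, 183 bases before the upstream start of Etv5. The 6 letters TGAATG, which both CIC motifs contain, were added after the windows had been read. They lay in 10.9% of all windows and 3 times or more in 0.131%, once before Dusp6 and 3 times before the downstream start of Etv5. The 3 windows with a match are shown 5′ to 3′ along the gene, with the matches to GTAAACA and TGAATG (or its complement CATTCA) in capitals. A match is a string of letters and not a bound site.
Dusp6, plus strand, chr10:99262981-99263230: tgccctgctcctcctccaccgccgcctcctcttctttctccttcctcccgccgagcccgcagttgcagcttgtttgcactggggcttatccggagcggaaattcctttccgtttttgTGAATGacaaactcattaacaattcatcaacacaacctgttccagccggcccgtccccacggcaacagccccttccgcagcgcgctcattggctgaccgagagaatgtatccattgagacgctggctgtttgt
Etv5 upstream start, minus strand, chr16:22439571-22439820: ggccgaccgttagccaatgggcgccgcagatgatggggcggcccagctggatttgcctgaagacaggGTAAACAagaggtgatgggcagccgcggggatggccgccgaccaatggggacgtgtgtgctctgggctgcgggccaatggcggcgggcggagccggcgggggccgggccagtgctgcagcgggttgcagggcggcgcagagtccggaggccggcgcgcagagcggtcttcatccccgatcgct
Etv5 downstream start, minus strand, chr16:22438369-22438618: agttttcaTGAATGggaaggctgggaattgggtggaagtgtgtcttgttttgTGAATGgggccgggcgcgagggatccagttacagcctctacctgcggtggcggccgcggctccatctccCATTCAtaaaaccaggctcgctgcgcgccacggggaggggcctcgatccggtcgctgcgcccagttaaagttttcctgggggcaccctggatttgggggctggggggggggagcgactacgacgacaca

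Dusp6, with the single TGAATG above, read 9.52, 9.91, 9.61 and 9.88 in XY controls and 9.34, 8.51, 9.56 and 9.60 in XY FOXL2+. XX controls read 8.14, 7.92, 7.69 and 7.70. No XX array reached any XY array, and of the XY FOXL2+ arrays replicates 3 and 4 lay in the XY control range, replicate 1 just below it and replicate 2 between the XY and XX controls. Dusp6 was 3.65-fold lower in XX than in XY controls (-1.87, SE 0.21, adjusted p = 5.32e-05). XY FOXL2+ stood 2.62-fold above XX controls (1.39, SE 0.21, adjusted p = 0.00236). Against XY controls the difference was -0.48 (SE 0.21, 95% confidence interval -0.93 to -0.02, adjusted p = 0.23) and did not pass.

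Etv5, the gene with 3 copies of TGAATG at its downstream start, read 8.83, 8.99, 8.80 and 8.69 in XY controls and 8.31, 7.93, 8.70 and 8.59 in XY FOXL2+. XX controls read 7.41, 7.32, 7.64 and 7.35, below all XY arrays of either kind. The sex difference was 2.63-fold (-1.40, SE 0.15, adjusted p = 3.59e-05), and XY FOXL2+ was 1.94-fold above XX controls (0.95, SE 0.15, adjusted p = 0.00285). XY FOXL2+ differed from XY controls by -0.44 (SE 0.15, adjusted p = 0.106), and by -0.55 without XY FOXL2+ replicate 3 (adjusted p = 0.0391). With replicates 3 and 4 left out together, an alternative added after the data had been seen, both genes passed: Dusp6 by -0.80 (adjusted p = 0.0318) and Etv5 by -0.71 (adjusted p = 0.00589).

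Etv4, the other ETS factor, read just under the array medians of 6.15 to 6.30 on all 12 arrays. XY controls gave 5.84, 6.04, 5.90 and 5.85, XY FOXL2+ gave 6.03, 5.71, 6.00 and 6.10, and XX controls gave 5.64, 5.61, 5.66 and 5.63. Y-linked genes, which XX gonads lack, read 5.99 (Eif2s3y), 6.24 (Uty), 6.27 (Kdm5d) and 6.94 (Uba1y) on average in XX controls. The array's background probes had lower medians, 3.99 to 4.17, so Etv4 lay above the background probes but not above these Y-linked genes. The Sertoli marker Amh averaged 5.55 in XX controls and Foxl2 5.35 in XY controls, both under the group means of Etv4. These values do not settle whether Etv4 was detected. The sex difference of Etv4 (-0.27, SE 0.09, adjusted p = 0.0471) and its difference between XY FOXL2+ and XX controls (0.32, SE 0.09, adjusted p = 0.0477) passed narrowly. The first lost its call under 11 of 20 alternatives and the second under 14 of 20, with adjusted p up to 0.127 and 0.278, and leaving out any single control array, XY or XX, ended the first call.

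**Figure D3:**
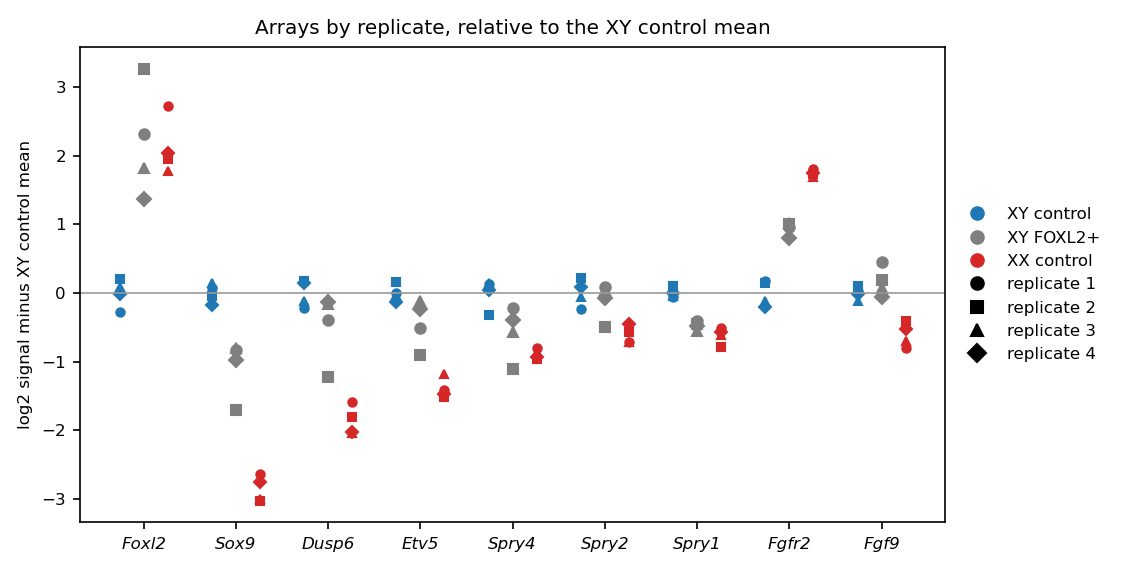
Signal of each array minus the XY control mean of that gene (log2, vertical axis) for Foxl2, Sox9 and 7 of the FGF9 signalling genes, with colour giving the group and marker shape the replicate number. XY FOXL2+ replicate 2 (grey square) is the highest in Foxl2 and the lowest of its group in Sox9, Dusp6, Etv5, Spry4 and Spry2, whereas Spry1 and Fgfr2 stay close together in all 4 XY FOXL2+ arrays.

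The XY FOXL2+ arrays differed among themselves in the feedback and response genes. Replicate 2 was the lowest of its group in 5 of the 10 genes: Spry2, Spry4, Dusp6, Etv4 and Etv5. It was also the array with the highest Foxl2 signal, 8.62, the lowest Sox9 signal, 8.77 against 9.49 to 9.67, the lowest Sertoli marker mean, 7.75 against 8.47 to 9.40, and the highest granulosa marker mean, 10.25 against 8.11 to 9.40. In Dusp6 the arrays ran from 8.51 (replicate 2) through 9.34 (replicate 1) and 9.56 (replicate 3) to 9.60 (replicate 4), the reverse of their order in Foxl2. No other gene of the 10 had exactly this order. Etv5 rose from replicate 2 through replicates 1 and 4 to replicate 3, and in Spry2 and Spry4 replicate 1 was the highest. The SD of Dusp6 was 0.51 in XY FOXL2+, 0.19 for XY and 0.21 for XX controls, and that of Etv5 was 0.35 against 0.12 and 0.15. Among XY controls replicate 2 was the highest of its group in 8 of the 10 genes, in Dusp6 at 9.91 with replicate 4 next at 9.88. Whether the Foxl2 level has a part in the order of the XY FOXL2+ arrays was not tested. The SD of Spry1 was 0.06 in XY FOXL2+ and that of Fgfr2 was 0.10, no wider than in XY controls (0.07 and 0.19). With 4 arrays these orders are a description. Replicate 1, which stood apart from all arrays, was the highest of its group in 5 genes, among them Fgf9. Its mean of 7 germ cell markers was 10.13, against 10.94 to 11.23 on the other 3 arrays.

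The other genes of the pathway were taken from a list of 95 by role, of which 83 had a cluster of their own. In XY FOXL2+ against XY controls 7 rose and 14 fell, with a median of 0.02, and in XX against XY controls 10 were higher and 28 lower, with a median of -0.08. Over the array 2.46% of clusters rose and 4.67% fell in the first comparison, 7.12% in either direction. In the second 7.17% were higher and 10.2% lower, 17.4% in either direction. With only the 2 groups compared in the fit, 13 of the 83 passed for XY FOXL2+ in place of 21, and without XY FOXL2+ replicates 3 and 4 it was 36. Against XX controls 10 were higher and 10 lower in XY FOXL2+, where 5.51% of all clusters were called, and 10 to 28 passed in all when 1 array was left out. Several of the genes named below had group means near those of the Y-linked genes in XX controls (5.99 to 6.94), among them Phlda1 (6.18 in XY controls, 6.92 in XY FOXL2+), Fgf10 (6.41 in XY controls, 5.95 in XX controls), Dusp4 (6.41 in XX controls) and Gdnf (5.69 in XX controls), and at such signals detection is not settled.

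**Figure D4:**
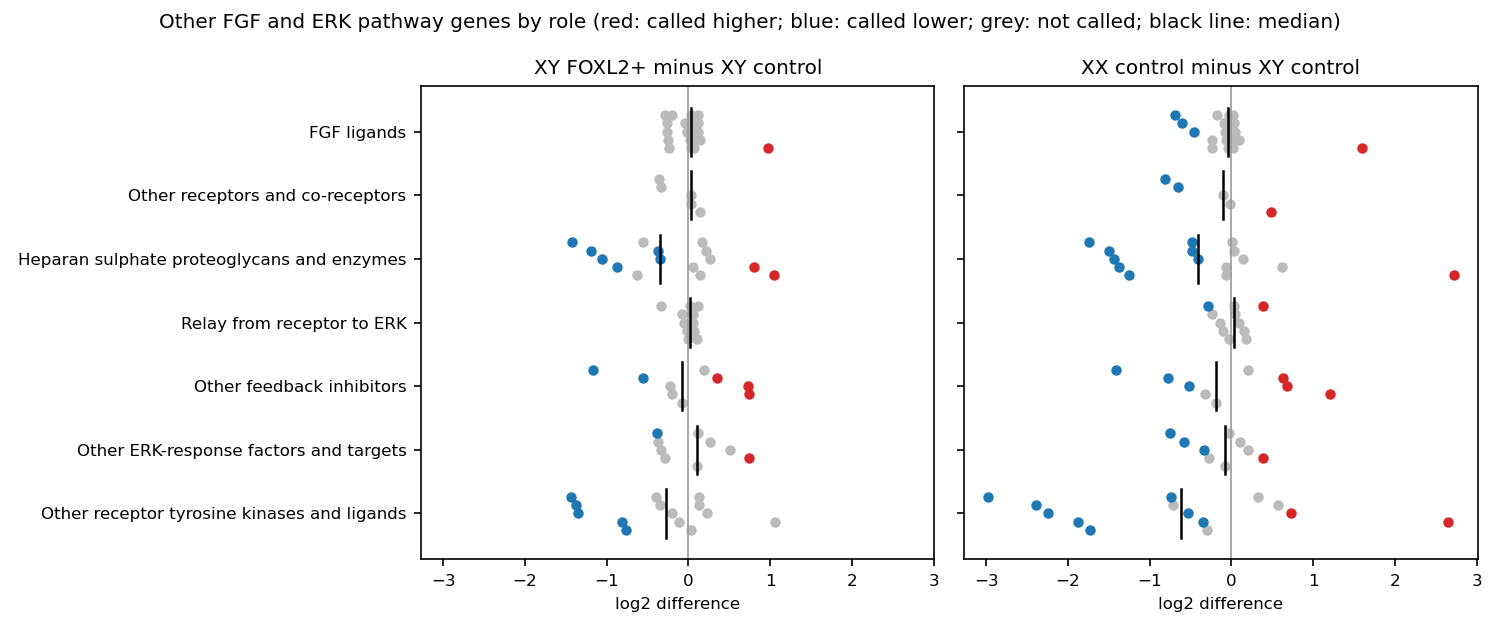
Log2 differences (horizontal axis) of the 83 other FGF and ERK pathway genes by role, for XY FOXL2+ minus XY control (left) and XX control minus XY control (right), with genes called higher in red, called lower in blue, not called in grey and the median of each role as a black line. In the left panel the relay genes hold no coloured point and the heparan sulphate genes hold 8.

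Of 20 other FGF genes measured, 1 rose in XY FOXL2+: Fgf11, a member of the intracellular branch that does not act as a secreted ligand, by 0.97 (SE 0.14, adjusted p = 0.00123), and it was also higher in XX controls (1.60, adjusted p = 1.03e-05). None fell, and in XX controls 3 were lower (Fgf2, Fgf10 and Fgf13, between -0.46 and -0.70). Beside these counts and those of receptors and relay genes below, 2.46% of all clusters rose and 4.67% fell in XY FOXL2+. In XX controls 7.17% of all clusters were higher and 10.2% lower. Of 5 other receptors and co-receptors none passed in XY FOXL2+. In XX controls Fgfr3 was higher (0.48, adjusted p = 0.00275), while Fgfrl1 (-0.81, adjusted p = 0.000488), a receptor without a kinase domain, and Fgfr4 (-0.65, adjusted p = 0.0418) were lower. The Fgfr4 call ended under 8 of 21 alternatives, with adjusted p up to 0.124. Of 11 genes that carry the signal from receptor to ERK, none passed in XY FOXL2+. In XX controls the adaptors Gab1 (0.39, adjusted p = 0.00894) and Shc1 (-0.28, adjusted p = 0.0342), named after their values were seen, were called higher and lower. The Shc1 call ended under 9 of 21 alternatives, with adjusted p up to 0.157, and the Gab1 call under none.

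Of 15 genes of heparan sulphate, the co-receptor, 6 fell and 2 rose in XY FOXL2+, where 4.67% of all clusters fell and 2.46% rose. Among those that fell were the glypicans Gpc6 (-1.42, SE 0.14, adjusted p = 4.04e-05) and Gpc1 (-1.19, adjusted p = 0.000135), which are cell-surface carriers of the chains. The sulphotransferases Hs6st1 (-1.06, adjusted p = 0.00494) and Hs6st2 (-0.87, adjusted p = 1.27e-05) also fell. The calls of these named genes held under all 21 alternatives. Sdc3, Sdc1 and Gpc3, also lower on average, were called under 19, 9 and 5 of 21, so the count of 6 rests in part on less stable calls. Sdc2, another carrier, rose (0.80, adjusted p = 0.000336), as did Sulf1 (1.05, SE 0.26, adjusted p = 0.026), an enzyme that removes sulphate from the chains and lowers FGF signalling. The Sulf1 call ended under 5 of 21 alternatives, with adjusted p up to 0.0932. In XX controls 8 of the 15 genes were lower, Gpc1 and Gpc6 among them, and 1 higher, beside 10.2% and 7.17% of all clusters. Sulf1 was higher in XX than in XY controls by 2.72 (adjusted p = 1.42e-05) and its relative Sulf2 was lower (-1.44, adjusted p = 0.000645). Hs6st1 averaged 12.66 in XX and 12.72 in XY controls (adjusted p = 0.895), and XY FOXL2+, at 11.66, was below the XX controls as well (-0.999, SE 0.19, adjusted p = 0.00953).

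Of 9 other feedback inhibitors 2 fell and 3 rose in XY FOXL2+, beside 4.67% and 2.46% of all clusters. Dusp4, a nuclear ERK phosphatase, fell by 1.17 (SE 0.13, adjusted p = 0.000165), and Il17rd (Sef), a membrane inhibitor of FGF receptors named here after its values were seen, fell by 0.56 (SE 0.08, adjusted p = 0.000677). Both were lower in XX controls too, with differences of -1.41 and -0.78. Dusp5, the other nuclear ERK phosphatase of the list, went the other way and rose by 0.75 (SE 0.12, adjusted p = 0.00189), with a difference of 1.21 in XX controls. Spry3 (0.73, adjusted p = 0.0481) and Rasa1 (0.35, adjusted p = 0.043), a RAS GTPase activator, rose near the threshold, and their calls ended under 14 and 9 of 21 alternatives, with adjusted p up to 0.133 and 0.13. The falls of Spry1, Dusp4 and Il17rd and the rise of Dusp5 held under all 21 alternatives. Of 9 ERK-response factors and targets, Phlda1 rose (0.75, SE 0.08, adjusted p = 8.04e-05) and Cic, which encodes the repressor whose motifs were searched above and was named after its values were seen, fell (-0.38, SE 0.10, adjusted p = 0.0298). The Cic call ended under 6 of 21 alternatives, with adjusted p up to 0.116. In XX controls 3 of these 9 factors and targets were lower and 1 higher, beside 10.2% and 7.17% of all clusters. Egr1 (7.28 in XY and 6.53 in XX controls) and Jun (9.76 and 9.19), named after their values were seen, were lower under all 21 alternatives. The XX mean of Egr1 lay near those of the Y-linked genes.

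Of 14 genes of other receptor tyrosine kinases and their ligands, which feed the same relay, 5 fell in XY FOXL2+ and none rose, while 8 were lower and 2 higher in XX controls. Over all clusters 4.67% fell and 2.46% rose in XY FOXL2+, and 10.2% were lower and 7.17% higher in XX controls. Pdgfrb, a receptor of interstitial and perivascular cells, fell by 1.44 (SE 0.13, adjusted p = 2.69e-05). Gdnf, a Sertoli cell ligand of RET in germ cells, fell by 1.35 (adjusted p = 0.0112), and Hgf, the ligand of MET, by 1.38 (adjusted p = 0.0164). These last calls ended under 1 and 2 of 21 alternatives, with adjusted p up to 0.0541 and 0.0695. The others that fell, named after their values were seen, were Pdgfa (-0.82), called under all 21 alternatives, and Ret (-0.77), whose call ended under 5 of 21, with adjusted p up to 0.0829. Nrg1, a ligand of ERBB receptors, averaged 11.31 in XY controls and 11.54 in XY FOXL2+ (0.23, SE 0.42, adjusted p = 0.823). That mean hides a split. XY FOXL2+ replicates 1 and 2 read 10.88 and 10.21, below the XY control range of 11.17 to 11.53. Replicates 3 and 4 read 12.50 and 12.58, above it. The split was not particular to Nrg1. Sulf2 read 14.38 and 14.18 in XY FOXL2+ replicates 1 and 2 and 15.32 and 15.36 in replicates 3 and 4. Sulf1, Hs6st1, Spry3, Egfr, Kit and Kitl parted between the same arrays, in either direction, so their group means do not stand for 4 alike gonads. Nrg1 was higher in XY FOXL2+ than in XX controls, which averaged 8.32 (3.22, SE 0.42, adjusted p = 0.000908). Its receptor Erbb3 was higher in XY FOXL2+ than in XX controls in the same way (1.39, adjusted p = 0.000196). Kitl, the KIT ligand, was higher in XX than in XY controls (2.65, SE 0.42, adjusted p = 0.000686).

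The genes most like Fgf9 over the 12 arrays, by Pearson correlation with every named gene at or above the median signal, were Sh3bgrl (r = 0.95), Mtbp (0.95), Dock10 (0.94), Nuf2 (0.94) and Plekho1 (0.94). All 5 were lower on average in XX controls than in either XY group, as Fgf9 was. Nuf2 encodes a kinetochore protein of dividing cells, and the mean of 5 proliferation markers lay at 12.84 to 13.03 on XY control arrays, 12.61 to 13.05 on XY FOXL2+ arrays and 12.07 to 12.33 on XX arrays. The part of cell division in the Fgf9 difference was not tested. Those most like Dusp6 were Racgap1, Nhs, Gria4, Arhgap6 and Enpep (r = 0.98 each), and those most like Etv5 were Mmd2 (0.99), Mir691, Fhl2, Cst9 and Plppr4 (0.98 each). Cst9 is a Sertoli cell marker with means of 14.28 for XY controls, 11.77 for XY FOXL2+ and 6.98 for XX controls. Markers of other cells had the same order, and it is not particular to Sertoli cells. Cyp17a1 of fetal Leydig cells averaged 18.15, 11.26 and 8.63, and Nr2f2 of interstitial cells 12.21, 11.60 and 10.54. These correlations join 3 groups that differ in many genes, and are descriptions of 12 arrays.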

How the data were processed

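The deposited table holds 1 log-scale signal per transcript cluster and array, taken as log2 values since they run from 2.60 to 19.49. Per the labels' protocols, target was made from 100 ng of RNA by an Affymetrix WT Plus reaction. How the authors corrected background, summarized and normalized, and in which log base, is not stated there; another base would rescale every difference and fold and leave the tests alone. The table carries no detection calls, and differences of genes near background are compressed. Of 72688 entries, 6732 control probe sets were left out. Gene symbols are those of the platform, brought up to date with RefSeq (GRCm38.p6): 31258 clusters have 1 symbol, 1492 several and 33206 none listed. A gene with several clusters was read from the one with the highest mean. Genes whose cluster names several genes, such as Etv1 and Pdgfra, were not analysed here.

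Groups, from the sample titles, entered 1 limma fit (version 3.58.1, R 4.3.3; eBayes with intensity trend, all 12 arrays), two-sided, with Benjamini-Hochberg adjustment over 65956 clusters, tested first on simulated data. A called gene has an adjusted p under 0.05. Confidence intervals are from that fit, at 95%, unadjusted. The exact permutation test has 70 assignments of 4 against 4 arrays. The labels name no litter, day or scan batch, and the number of arrays limits the precision. The 10 genes and the pathway and marker lists were chosen with earlier results of these data known. Named were the 10 genes, up to 8 called pathway genes per direction and comparison, and the 5 genes most correlated with Fgf9, Dusp6 and Etv5. Alternatives were 9 other settings and leaving out each of 12 arrays.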

Additional observations from a re-analysis of the deposited data

Results flagged for a closer look

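Fgfr1 read 10.57 in XY FOXL2+ replicate 1, against 10.80 to 10.82 on the other 3 arrays of the group, a gap of 0.944 of the group's whole range above Dixon's 95% critical value for 4 arrays. It was the 1 array so found among the 30 groups of 4 arrays (10 genes in 3 groups), where chance gives about 1 in 20. The same array stood apart over all clusters.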

How the results depend on the processing

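Across 9 other settings and 12 left-out arrays, the differences of Fgf9, Spry1, Dusp6, Etv5 and Fgfr2 kept their direction in all 3 comparisons. All their calls held, and other calls appeared for Dusp6 and Etv5 as given above. Directions reversed for 3 differences from XY controls that were not called: Spry2 in XY FOXL2+ (0.0216 without replicate 2; -0.1862 to 0.0216 over left-out arrays), Spred1 (-0.0078 without XY control replicate 4; -0.0078 to 0.0954) and Etv4 (-0.0366 without XY FOXL2+ replicates 3 and 4, a setting added after the data were seen).

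Without those 2 arrays 8318 clusters, 4 of the 10 genes and 36 pathway genes were called for XY FOXL2+ against XY controls (4698, 2 and 21 with all arrays), and 1855 clusters and 9 pathway genes against XX controls (3635 and 20). With only the 2 groups compared, 2700 clusters and 13 pathway genes were called against XY controls, and 1916 and 11 against XX controls. With array weights 6752 clusters and 33 pathway genes were called against XX controls. Leaving out 1 array gave 3124 (without XY control replicate 3) to 5392 clusters against XY controls and 2012 to 5992 against XX controls. The latter count moved by over 1.5 times without XY FOXL2+ replicates 2 (5992), 3 (2255) or 4 (2012) and without XX control replicates 2 (2041), 3 (2068) or 4 (2215). In the same fits 15 to 24 pathway genes passed against XY controls and 10 to 28 against XX controls, the latter at 13 or fewer without XY FOXL2+ replicates 3 or 4 or any 1 XX control. The cause of these shifts was not tested. Of the 10 genes, 2 to 3, 7 to 9 and 4 to 7 passed in XY FOXL2+ against XY controls, XX against XY controls and XY FOXL2+ against XX controls. After quantile normalization higher calls made up 45.1% in place of 34.5% for XY FOXL2+ against XY controls, and 53.2% in place of 41.3% for XX against XY controls.

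Arrays with the same replicate number did not deviate together (correlations of -0.0906 to 0.179). With the replicate number as a block Spry4 was called in XY FOXL2+ (-0.58, adjusted p = 0.0176), and Etv4 was not called in XX controls (-0.27, adjusted p = 0.0923) or between XY FOXL2+ and XX controls (0.32, adjusted p = 0.0961). No other call among the 10 genes changed under the block.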
